A study of Homo sapiens with 18 samples.

Results

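The ZNF genes of human chromosome 19 were examined in bulk RNA-seq of hiF-T cells. This line of fibroblast-like cells was made from BJ skin fibroblasts and carries a telomerase (hTERT) gene. The members are the protein-coding genes of the chromosome named ZNF and a number that had 10 or more estimated counts in at least 4 of the 18 libraries, and 214 of the 240 annotated genes of that name met the rule. The libraries fell into 4 groups. CDKN1A knockdown and KDM1A knockdown each had 2 CRISPR guides and 4 libraries, SPP1 knockdown had 3 guides and 6 libraries, and the control, titled as the backbone, had 2 guides and 4 libraries. Every guide had a replicate 1 and a replicate 2, which the titles call biological replicates. All libraries share the hTERT line and the wild-type genotype of the labels. The labels do not say how the guides act, whether the control guides lack a target, or whether replicates came from separate cultures. The p-values therefore measure the spread between these libraries, which may be partly technical.

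Most of these genes encode C2H2 zinc finger proteins, which bind DNA through an array of finger domains, and many carry a KRAB domain. KRAB zinc finger proteins recruit TRIM28, and through it SETDB1 and heterochromatin proteins, to the sequences they bind, and a main class of targets is transposable elements. The genes arose by repeated duplication and lie in tandem clusters along the chromosome, where neighbours are often close relatives in sequence. CDKN1A encodes the cell cycle inhibitor p21, KDM1A encodes the histone demethylase LSD1, and SPP1 encodes the secreted protein osteopontin.

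Libraries held 11907197 to 17016094 estimated counts. The CDKN1A mRNA was lower in CDKN1A knockdown than in control (log2 fold change -0.78 ± 0.13 SE, adjusted p = 0.00395) and the KDM1A mRNA was lower in KDM1A knockdown (-0.92 ± 0.10, adjusted p = 7.27e-06), by edgeR's quasi-likelihood F test with Benjamini-Hochberg adjustment over all 13527 genes tested. SPP1 mRNA in SPP1 knockdown did not pass the test (-0.71 ± 0.22, adjusted p = 0.0696). It was 21.7 to 63.0 CPM (counts scaled to library size, by TMM) in SPP1 knockdown and 55.2 to 72.7 CPM in control, and the groups overlapped. By the same test SPP1 mRNA was higher in KDM1A knockdown than in control (1.032 ± 0.235, adjusted p = 0.00793). In CDKN1A knockdown it did not pass (0.853 ± 0.235, adjusted p = 0.0646). Of the fibroblast markers VIM averaged 6278 TPM (a level corrected for transcript length and library size) and COL1A1 1568 TPM in control libraries, whereas THY1 averaged 0.138 TPM. The leukocyte marker CD3E and the keratinocyte markers KRT5 and KRT1 were listed at 0 in every control library. Other markers of the same lists were above 0. The leukocyte markers PTPRC and CD14 averaged 0.395 and 0.410 TPM in control. The keratinocyte genes KRT14, TP63 and KRT10 averaged 0.940, 0.910 and 154.9 TPM.

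Promoter sequences are shown for the members that passed the test in a knockdown against control, from RefSeq on GRCh38.p14, where 193 of the 214 members had an entry. Each runs from 250 bases before to 50 bases after the annotated start, on the gene's own strand. The 4 motifs below were searched on both strands and stand in capitals: CCGGAAG, the core bound by ETS factors; GGGCGG, the GC box bound by SP factors; TATAAA, the TATA box; and ACTACA followed by any 2 bases and TCCC, the core bound by ZNF143, which was added after the sequences had been seen. In ZNF85 a GC box directly precedes the ETS core on the reverse strand, so their capitals run together.
ZNF85, chr19:20923001-20923300, plus strand: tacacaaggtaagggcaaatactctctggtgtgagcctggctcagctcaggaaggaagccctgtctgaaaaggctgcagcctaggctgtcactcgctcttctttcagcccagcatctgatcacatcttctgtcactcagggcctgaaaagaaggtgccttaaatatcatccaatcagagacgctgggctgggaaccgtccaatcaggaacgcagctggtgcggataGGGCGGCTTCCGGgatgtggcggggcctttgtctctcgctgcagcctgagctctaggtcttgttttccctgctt
ZNF324, chr19:58466830-58467129, plus strand: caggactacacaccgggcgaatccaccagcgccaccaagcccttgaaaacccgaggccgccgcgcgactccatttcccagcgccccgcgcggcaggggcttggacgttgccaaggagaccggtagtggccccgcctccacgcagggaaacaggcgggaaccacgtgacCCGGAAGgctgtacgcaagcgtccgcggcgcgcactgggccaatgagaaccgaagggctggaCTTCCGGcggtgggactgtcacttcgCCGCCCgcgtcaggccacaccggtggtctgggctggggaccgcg
ZNF260, chr19:36528222-36528521, minus strand: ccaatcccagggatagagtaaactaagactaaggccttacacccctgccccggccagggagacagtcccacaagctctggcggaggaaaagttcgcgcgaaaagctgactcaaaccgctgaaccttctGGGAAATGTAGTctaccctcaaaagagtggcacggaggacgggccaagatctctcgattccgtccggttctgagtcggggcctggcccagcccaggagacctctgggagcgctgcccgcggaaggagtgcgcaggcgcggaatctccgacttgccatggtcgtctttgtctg
ZNF331, chr19:53520764-53521063, plus strand: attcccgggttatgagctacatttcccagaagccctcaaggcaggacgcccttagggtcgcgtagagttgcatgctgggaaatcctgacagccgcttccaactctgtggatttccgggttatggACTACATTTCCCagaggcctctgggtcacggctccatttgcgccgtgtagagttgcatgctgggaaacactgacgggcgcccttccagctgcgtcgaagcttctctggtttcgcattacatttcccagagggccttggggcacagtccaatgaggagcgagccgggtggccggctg
The fifth, ZNF473, is named only.

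The ETS core stood in 45.6% of the members' promoters, in 40.5% of the 173 promoters of ZNF genes on other chromosomes, in 19.3% of the 10104 promoters of all genes tested and in 10.7% of all 27305 promoters of this length. The ZNF143 core stood in 16.1% of the members' promoters, in 7.51% of those of ZNF genes on other chromosomes, in 4.01% of those of all genes tested and in 1.96% of all promoters. TATAAA stood in 2.07% of the members' promoters and in 5.61% of those of all genes tested, while the GC box stood in 68.9% and 69.5% of them. Members held a median of 21 CpG dinucleotides per promoter, against 26 for all genes tested. The 2 cores were spread unevenly along the chromosome, where annotated ZNF genes whose starts lie less than 1000000 bases apart are called a block, numbered from the tip of the short arm. The ZNF143 core stood in 10 of 21 promoters of block 9 and 10 of 20 of block 12, but in 0 of 22 of block 3 and 0 of 23 of block 5. The ETS core stood in 17 of 23 promoters of block 5, 19 of 30 of block 15, 31 of 50 of block 16 and 3 of 4 of block 8. It stood in 2 of 22 of block 3, 5 of 21 of block 9 and 6 of 20 of block 12. Promoters within a block are related by duplication and are not independent. The 31 members with the ZNF143 core had a median log2 fold change of -0.105 in KDM1A knockdown against control, and the 162 without it -0.071. In CDKN1A knockdown the medians were -0.008 and 0.043, and in SPP1 knockdown 0.012 and -0.007. The other motifs also split the members in KDM1A knockdown. Medians were -0.067 with and -0.097 without the ETS core, and -0.064 with and -0.106 without the GC box. These differences were not tested.

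The annotated genes formed 16 blocks, of which 5 held 1 gene only. Block 16, at the end of the long arm (chr19:55476332-58481230), was the largest, with 57 annotated genes and 55 members. Block 5, next to the centromere (chr19:19668796-24129961), held 37 annotated genes and 27 members, so that 10 of the 26 genes below the count threshold lay there. Among those, ZNF676 and ZNF729 had no count in any library. A threshold of 10 counts in all 18 libraries would have kept 185 genes, and any count at all 238. Just inside the threshold were ZNF296 and ZNF99, each with 10 or more counts in 4 libraries, and ZNF66 with 5. Their TPM over all libraries ran from 0.142 to 1.26 for ZNF296, from 0.0319 to 0.162 for ZNF99 and from 0 to 1.58 for ZNF66. Just outside were ZNF114, with 10 or more counts in 3 libraries, and ZNF563 and ZNF835, with 2 each. Their TPM ran from 0.256 to 3.63 for ZNF114, from 0 to 0.644 for ZNF563 and from 0.0401 to 0.395 for ZNF835. No member met the threshold through libraries of 1 group alone.

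Chromosome 19 ZNF genes were expressed at low levels. The median member had 3.79 TPM in control libraries, against 6.36 TPM for the 207 ZNF genes of other chromosomes that met the same count rule and 17.4 TPM for all genes tested. The range ran from 0.0794 to 57.5 TPM, and 34 of the 214 members (15.9%) reached 10 TPM, against 34.8% of the ZNF genes of other chromosomes. All members together took 0.165 to 0.179% of the counts of a CDKN1A knockdown library, 0.153 to 0.165% in KDM1A knockdown, 0.160 to 0.176% in SPP1 knockdown and 0.162 to 0.171% in control. Each knockdown overlapped the control in this share, while CDKN1A and KDM1A knockdown did not overlap each other. Block medians of the control level lay between 1.55 TPM in block 1 and 6.43 TPM in block 2 among blocks of 5 or more genes.

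**Figure D1:**
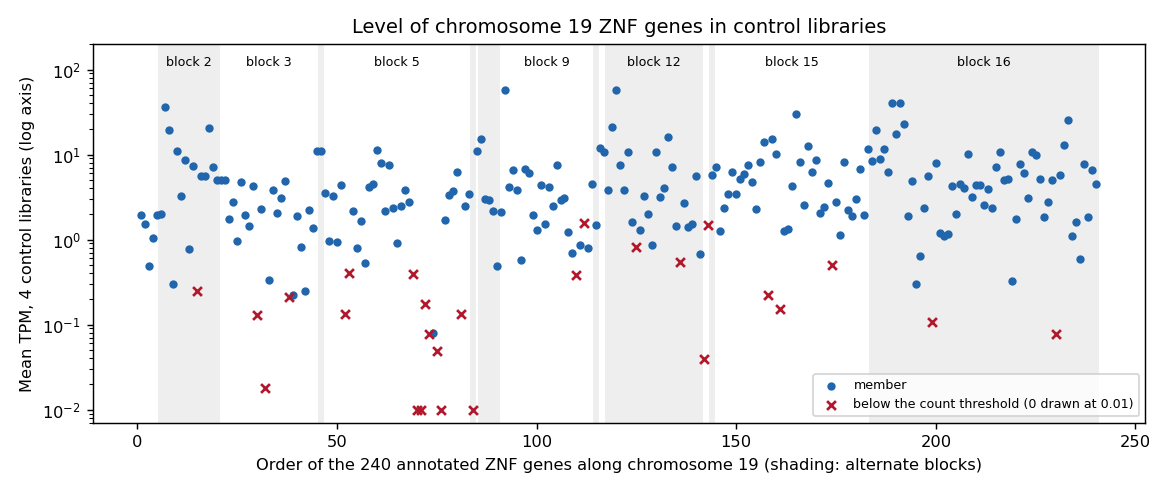
Mean TPM in the 4 control libraries (log axis) of each annotated chromosome 19 ZNF gene, in order along the chromosome, with alternate blocks shaded. Points are the 214 members and crosses the 26 genes below the count threshold, 10 of which lie in block 5.

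The members with the highest control level were ZNF146, ZNF428, ZNF580, ZNF787, ZNF358 and ZNF83. ZNF146, a protein made up almost wholly of zinc fingers, had 57.3, 57.4, 55.6 and 65.4 TPM in CDKN1A knockdown, 54.0, 48.0, 49.2 and 52.3 TPM in KDM1A knockdown, a lowest, median and highest of 49.8, 55.2 and 61.4 TPM in SPP1 knockdown, and 56.7, 56.9, 52.5 and 64.0 TPM in control. ZNF428 had 50.8, 50.4, 50.9 and 63.3 TPM in CDKN1A knockdown, 46.9, 50.8, 58.3 and 67.3 TPM in KDM1A knockdown, 55.2, 59.8 and 68.6 TPM (lowest, median, highest) in SPP1 knockdown, and 62.5, 57.9, 56.9 and 52.6 TPM in control. The knockdown and control libraries of both genes overlapped in all 3 comparisons, and 3 of the 4 KDM1A knockdown libraries lay below every control for ZNF146. ZNF580 averaged 40.9 ± 0.985 TPM in CDKN1A knockdown (SD, n = 4), 46.7 ± 5.49 TPM in KDM1A knockdown (n = 4), 42.5 ± 1.69 TPM in SPP1 knockdown (n = 6) and 40.6 ± 4.54 TPM in control (n = 4), with single libraries from 36.1 to 52.5 TPM. ZNF787 averaged 38.1 ± 1.34, 40.0 ± 1.76, 37.1 ± 3.12 and 40.4 ± 2.56 TPM in CDKN1A, KDM1A and SPP1 knockdown and control, with single libraries from 31.2 to 42.8 TPM. All knockdown groups of both genes overlapped their controls. ZNF358 had 42.6, 38.8, 44.1 and 38.7 TPM in CDKN1A knockdown, 32.6, 34.3, 34.8 and 34.7 TPM in KDM1A knockdown, 31.3, 38.5 and 42.1 TPM (lowest, median, highest) in SPP1 knockdown, and 37.8, 34.3, 37.4 and 36.5 TPM in control. Its CDKN1A knockdown libraries all lay above the controls. ZNF83 ranged from 27.2 to 34.4 TPM in CDKN1A knockdown, 23.0 to 31.4 TPM in KDM1A knockdown, 21.6 to 33.8 TPM in SPP1 knockdown and 25.6 to 35.1 TPM in control. None of the 6 passed the test in any knockdown against control; their adjusted p from edgeR ran from 0.332 for ZNF580 in KDM1A knockdown to 0.910 for ZNF787 in KDM1A knockdown. ZNF146 and ZNF428 stood close enough in control TPM that their order is not resolved by the spread between libraries, as did ZNF580 and ZNF787. Exons of SRRM5 on the opposite strand cover 27.6% of ZNF428 and exons of ZNF565 on the opposite strand cover 10.8% of ZNF146. The labels do not say whether counting used strand, so such reads cannot be told apart.

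In CDKN1A knockdown against control ZNF85 rose and ZNF324 fell, 2 of 213 members tested (0.939%), where 2.00% of all genes tested were called (1.09% higher and 0.917% lower); ZNF99 did not pass the filter on low counts. The median member had a log2 fold change of 0.036 and 42.7% of members were below 0, against -0.004 and 51.1% for all genes tested. Library medians of -0.022 to 0.077 in CDKN1A knockdown overlapped those of -0.050 to 0.029 in control, and without both libraries of CDKN1A guide 2 the median was -0.013. In bulk RNA, fewer cells with a transcript and less transcript per cell cannot be told apart. Members are less deeply counted than most genes, with a median SE of 0.156 on the log2 scale against 0.096 for all genes tested, and 16 members (7.5%, against 16.5% of all genes tested) had an unadjusted p under 0.05, 11 higher and 5 lower. The count of 2 became 0 without any 1 of the 4 CDKN1A knockdown libraries, control guide 1 replicate 1 or 2, control guide 2 replicate 1 or SPP1 guide 2 replicate 2. It became 4 without SPP1 guide 3 replicate 2, stayed at 2 without SPP1 guide 1 replicate 1, and was 1 without any other library.

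ZNF85 (ENSG00000105750, chr19:20923222-20950697 on GRCh38, block 5) is a KRAB zinc finger gene of the primate-expanded ZNF91 family. It had 3.41, 5.12, 4.94 and 4.56 CPM in CDKN1A knockdown, against 2.35, 1.53, 2.11 and 2.56 CPM in control. All CDKN1A knockdown libraries lay above all controls, and KDM1A knockdown (1.45 to 3.41 CPM) and SPP1 knockdown (1.54 to 3.32 CPM) overlapped the controls. Single libraries of both these groups also lay above every control, among them both libraries of KDM1A guide 2. The highest KDM1A knockdown library (3.405 CPM) nearly reached the lowest CDKN1A knockdown library (3.409 CPM). The log2 fold change was 1.07 ± 0.27 (SE), with an adjusted p of 0.0448 in edgeR's test. Its level rests on 53.9 to 78.7 estimated counts per CDKN1A knockdown library, against 34.3 or fewer per control library. ZNF324 (ENSG00000083812, chr19:58467045-58475436, block 16) had 6.76, 6.22, 7.48 and 6.39 CPM in CDKN1A knockdown, against 8.71, 9.61, 9.25 and 8.31 CPM in control, without overlap. Its log2 fold change was -0.42 ± 0.11, with an adjusted p of 0.0480. Exons of other genes on the same strand, among them ZNF446, cover 25.1% of ZNF324. Of its 31-base words 62.9% were found in no transcript of another gene, so its counts may be shared with other genes. Both calls lie close to the threshold. Over 18 fits that each left out 1 library, ZNF85 lost its call in 10: without any 1 of the 4 CDKN1A knockdown libraries or the 4 controls, SPP1 guide 2 replicate 2 or SPP1 guide 3 replicate 1 (adjusted p 0.0502 to 0.115). ZNF324 kept its call only without SPP1 guide 1 replicate 1 or SPP1 guide 3 replicate 2 and reached an adjusted p of 0.143 otherwise. With the 2 libraries of each guide summed, 0 members were called, and the adjusted p of ZNF85 was 0.465 and that of ZNF324 0.466.

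**Figure D2:**
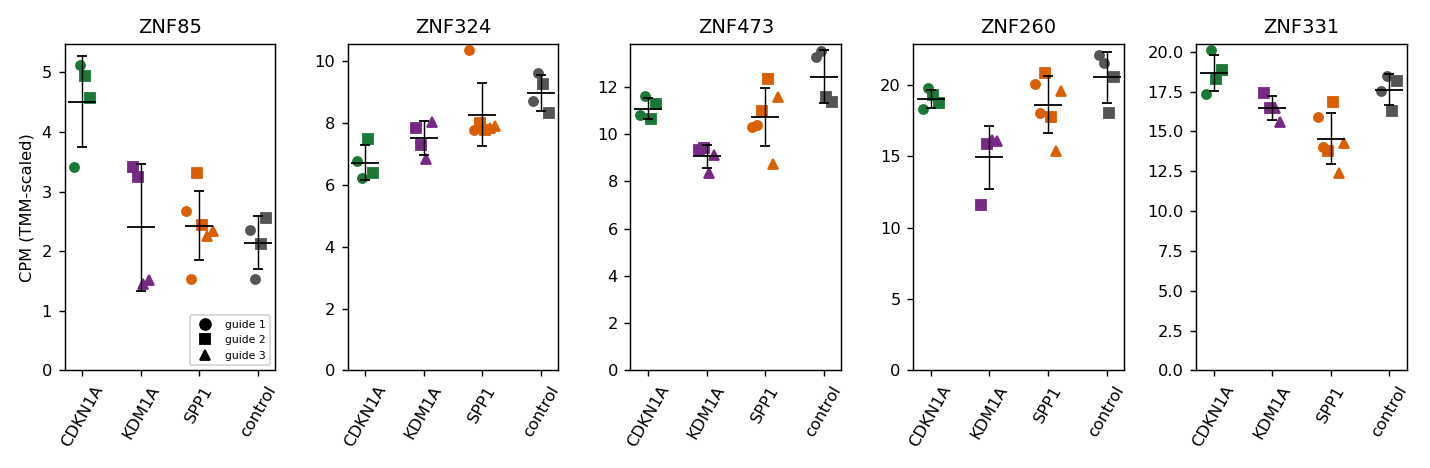
TMM-scaled CPM of the 5 members called in a knockdown against control, by library, with symbols for guides and bars for the mean and SD of each group (n = 4, 4, 6 and 4 for CDKN1A, KDM1A and SPP1 knockdown and control). ZNF85 is higher in all 4 CDKN1A knockdown libraries than in any control library, and ZNF473 and ZNF260 are lower in all 4 KDM1A knockdown libraries.

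In KDM1A knockdown against control ZNF473 and ZNF260 fell, 2 of 213 members (0.939%), where 9.05% of all genes tested were called (5.33% higher and 3.72% lower). The count became 4 without SPP1 guide 3 replicate 2. The median member had a log2 fold change of -0.081 and 68.5% of members were below 0, against -0.011 and 52.6% for all genes tested. The ZNF genes of other chromosomes, which the rule leaves out, had a median of -0.114 with 74.4% below 0, and 3 of 207 rose and 14 fell (8.21%). Other protein-coding genes of chromosome 19 had a median of -0.006. The difference between these lists was not tested.

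Library by library, the median member differed from the mean of the controls by -0.098 to -0.020 on the log2 scale in KDM1A knockdown, against -0.050 to 0.029 in the control libraries themselves, and 3 of the 4 KDM1A knockdown libraries lay below every control. The ZNF genes of other chromosomes stood at -0.131 to -0.099 in KDM1A knockdown and at -0.039 to 0.063 in control, without overlap. The 24 members with an unadjusted p under 0.05 (11.3%, against 22.6% of all genes tested) comprised 21 lower and 3 higher in KDM1A knockdown.

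**Figure D3:**
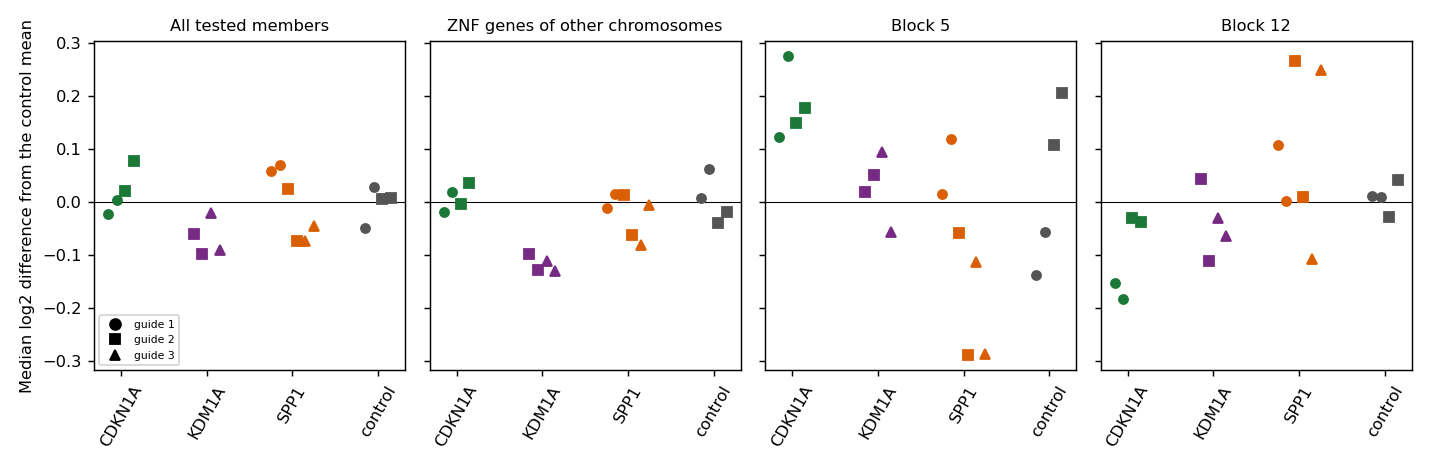
Median over genes of the log2 difference from the mean of the control libraries, for each library, with symbols for guides. Panels show all 213 tested members, the ZNF genes of other chromosomes, block 5 and block 12; in the second panel the 4 KDM1A knockdown libraries lie below all controls, and in the block 5 panel the 2 control guides lie on either side of 0.

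ZNF473 (ENSG00000142528, chr19:50025714-50053414, block 14) encodes ZFP100, a component of the U7 machinery that processes the ends of histone pre-mRNAs. It had 9.34, 9.42, 8.36 and 9.11 CPM in KDM1A knockdown, against 13.3, 13.5, 11.6 and 11.3 CPM in control. The groups did not overlap, and the log2 fold change was -0.46 ± 0.10 with an adjusted p of 0.00527 in edgeR's test. Its range was 10.7 to 11.6 CPM in CDKN1A knockdown and 8.73 to 12.3 CPM in SPP1 knockdown; the first overlapped the controls, and the second overlapped both KDM1A knockdown and control. ZNF260 (ENSG00000254004, chr19:36510695-36528660, block 9) had 11.6, 15.8, 16.1 and 16.1 CPM in KDM1A knockdown, against 22.05, 21.53, 18.04 and 20.51 CPM in control. These groups did not overlap either, and the log2 fold change was -0.46 ± 0.10 with an adjusted p of 0.00814. It had 18.3 to 19.8 CPM in CDKN1A knockdown and 15.3 to 20.8 CPM in SPP1 knockdown. Both calls held in all 18 fits that left out 1 library. With the effective transcript lengths as an offset the log2 fold change of ZNF473 was -0.19 (adjusted p = 0.620) and that of ZNF260 -0.12 (adjusted p = 0.813), and without both libraries of control guide 1 they missed the threshold, at adjusted p of 0.150 and 0.163. ZNF473 also lost its call without KDM1A guide 3 (adjusted p = 0.0541) and ZNF260 without KDM1A guide 2 (adjusted p = 0.0757); with the libraries of a guide summed the adjusted p were 0.123 and 0.0834.

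In SPP1 knockdown against control, where SPP1 mRNA itself did not pass the test, ZNF331 fell, 1 of 213 members (0.469%), where 5.46% of all genes tested were called (2.40% higher and 3.06% lower). The median member had a log2 fold change of -0.002, with 50.2% of members below 0, against 0.004 and 48.9% for all genes tested. A total of 19 members (8.9%, against 20.6% of all genes tested) had an unadjusted p under 0.05, 12 lower and 7 higher. ZNF331 (ENSG00000130844, chr19:53519527-53580269, block 15) is an imprinted KRAB zinc finger gene. It had 15.89, 13.99, 13.77, 16.87, 12.41 and 14.24 CPM in SPP1 knockdown, with a median of 14.1 CPM, against 17.6, 18.5, 16.2 and 18.2 CPM in control. The highest SPP1 knockdown library overlapped the controls and the other 5 lay below them. The log2 fold change was -0.28 ± 0.08 with an adjusted p of 0.0420. It lost the call in 11 of the 18 fits without 1 library (adjusted p 0.0515 to 0.152), among them those without control guide 1 replicate 1 or 2, control guide 2 replicate 2, SPP1 guide 1 replicate 2, SPP1 guide 2 replicate 1 and either library of SPP1 guide 3, and 4 without a library of another group (CDKN1A guide 2 replicate 1 or 2, KDM1A guide 2 replicate 2, KDM1A guide 3 replicate 1). With the libraries of a guide summed the adjusted p was 0.313.

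**Figure D4:**
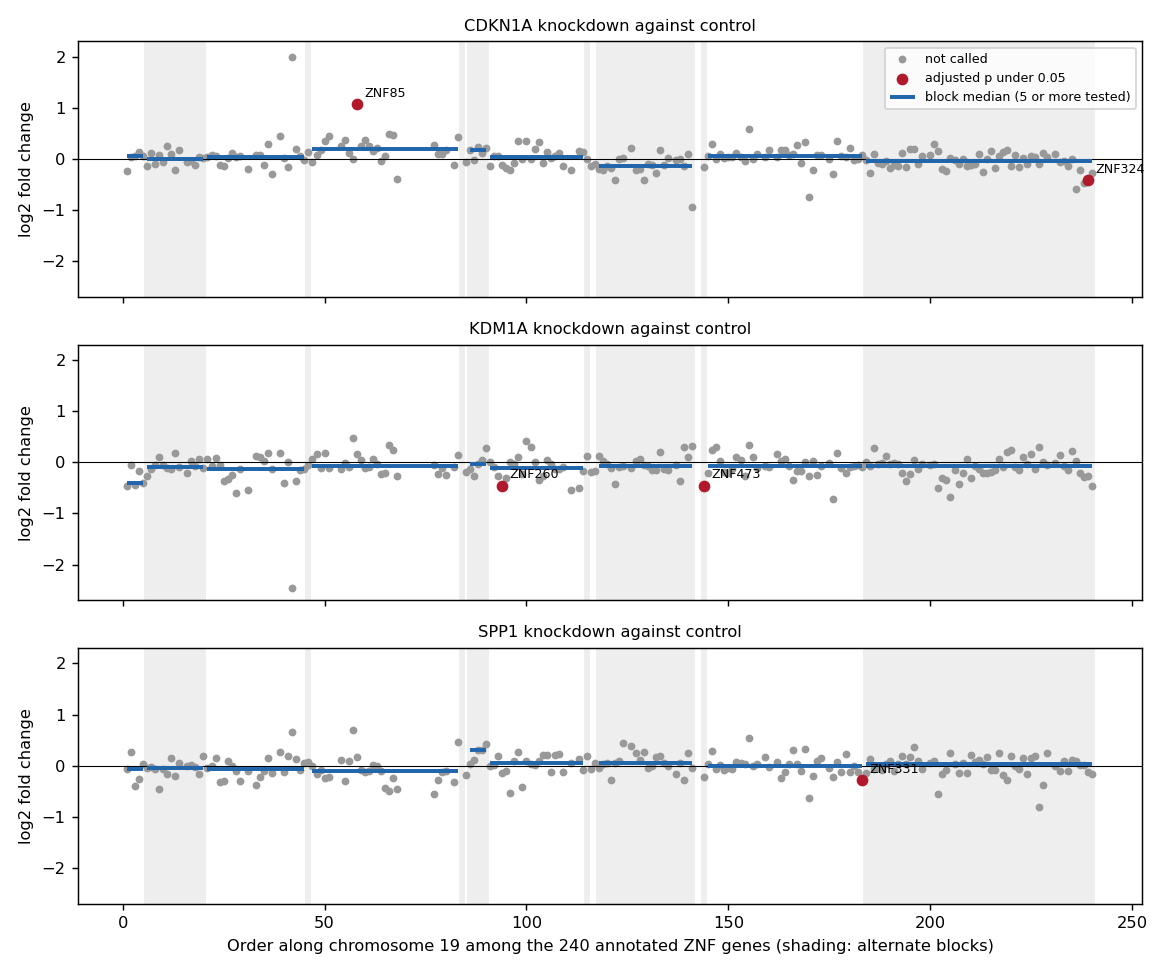
Log2 fold change of each of the 213 tested members in CDKN1A, KDM1A and SPP1 knockdown against control, in order along chromosome 19, with alternate blocks shaded. Red points passed the adjusted p threshold of 0.05 and blue lines are medians of blocks with 5 or more tested members; the block 5 line stands above 0 in CDKN1A knockdown and below 0 in SPP1 knockdown.

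The silencing partners of the KRAB zinc finger proteins, 24 genes including TRIM28, SETDB1 and the heterochromatin proteins, were all tested. None was called in CDKN1A or KDM1A knockdown against control, where 2.00% and 9.05% of all genes were called, with 5 (20.8%) at an unadjusted p under 0.05 in each against 16.5% and 22.6% of all genes. In SPP1 knockdown 2 rose (8.33%), where 5.46% of all genes were called. TRIM28, the shared corepressor, averaged 467 ± 20.8 CPM in CDKN1A knockdown (SD, n = 4), 455 ± 4.08 CPM in KDM1A knockdown (n = 4), 437 ± 21.7 CPM in SPP1 knockdown (n = 6) and 465.7 ± 17.6 CPM in control (n = 4). SETDB1, the histone methyltransferase it recruits, averaged 24.3 ± 1.61, 21.1 ± 1.31, 23.1 ± 1.45 and 22.2 ± 1.09 CPM in the same groups, and neither gene passed the test. CHD4, a remodelling subunit of the NuRD complex, rose in SPP1 knockdown by 0.21 ± 0.04 on the log2 scale (adjusted p = 0.00801), and DAXX, a histone chaperone, rose by 0.60 ± 0.15 (adjusted p = 0.0239), both by edgeR. DAXX had 56.6 to 78.5 CPM in SPP1 knockdown and 30.6 to 59.2 CPM in control, which overlapped.

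Members whose products are known to act on retrotransposons or on ZNF genes themselves were looked at for that role, with their values already seen. ZNF91, a repressor of SVA retrotransposons, had 6.07 to 7.26 CPM in CDKN1A knockdown, 5.31 to 6.34 CPM in KDM1A knockdown, 3.91 to 7.90 CPM in SPP1 knockdown and 4.63 to 7.38 CPM in control. ZNF93, a repressor of LINE elements, had 3.88 to 5.71, 2.45 to 3.99, 1.60 to 4.42 and 2.86 to 4.08 CPM in the same groups. ZNF274, which binds the ends of ZNF genes and brings SETDB1 there, had 21.2 to 23.7, 24.9 to 25.9, 17.5 to 24.1 and 20.1 to 25.3 CPM. Each of the 3 overlapped the controls in every knockdown, and none was called against control.

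The knockdowns were also compared with each other, where the control libraries enter only through the shared estimate of the spread. These comparisons share libraries with those above and with one another. In CDKN1A knockdown against KDM1A knockdown 10 members were higher and 1 lower of 213 (5.16%), where 14.9% of all genes were called (6.89% higher and 8.06% lower). The median member had a log2 fold change of 0.122, against 0.005 for all genes and 0.130 for the ZNF genes of other chromosomes, of which 21 of 207 were higher and 3 lower. ZNF568, whose mouse counterpart silences a placental transcript of Igf2, had 5.43, 6.22, 6.21 and 6.84 CPM in CDKN1A knockdown, against 3.64, 4.12, 4.22 and 3.39 CPM in KDM1A knockdown. The groups did not overlap, the controls (4.56 to 5.16 CPM) stood between them, and the log2 fold change was 0.68 ± 0.11 (adjusted p = 0.000412, edgeR). ZNF714, of block 5, had 18.81, 20.49, 18.98 and 19.54 CPM in CDKN1A knockdown, against 14.7, 14.5, 14.8 and 12.1 CPM in KDM1A knockdown, a log2 fold change of 0.47 ± 0.11 (adjusted p = 0.00570). The other members higher in CDKN1A knockdown were ZNF675, ZNF85, ZNF302, ZNF260, ZNF765, ZNF530, ZNF440 and ZNF709, and ZNF229 was lower (-0.44 ± 0.14, adjusted p = 0.0453). ZNF229 kept that call in 12 of 36 alternatives, and with protein-coding transcripts only its log2 fold change was 0.41 (adjusted p = 0.736). The fold change of ZNF709 is uncertain. It had 11.2 to 16.3 estimated counts in CDKN1A knockdown and 0 to 1.0 in KDM1A knockdown. Of its 31-base words 21.4% occur in no transcript of another gene. Exons of AC008758.1 and AC008758.6 on the same strand cover 79.2% of ZNF709. The count of 11 fell to 3 without CDKN1A guide 2 replicate 2, 4 without KDM1A guide 2 replicate 2, 5 without CDKN1A guide 1 replicate 2 or CDKN1A guide 2 replicate 1, and 7 without KDM1A guide 2 replicate 1; it was 1 with the libraries of a guide summed.

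In CDKN1A knockdown against SPP1 knockdown 10 members were higher and 3 lower (6.10%), against 12.0% of all genes (6.37% higher and 5.66% lower), with a median of 0.008. ZNF579 had 22.03, 21.92, 23.29 and 22.05 CPM in CDKN1A knockdown and a lowest, median and highest of 25.4, 29.6 and 32.1 CPM in SPP1 knockdown, and the control libraries had 24.3 to 28.2 CPM. It was lower in CDKN1A knockdown by a log2 fold change of -0.40 ± 0.07 (adjusted p = 0.000758) and was called in each of the 36 alternatives run. ZNF714 was higher by 0.49 ± 0.10 (adjusted p = 0.00359), with 11.3, 14.4 and 15.8 CPM (lowest, median, highest) in SPP1 knockdown. ZNF331 was higher by 0.36 ± 0.08 (adjusted p = 0.00504), ZNF700 by 0.35 ± 0.09 (adjusted p = 0.0158), and ZNF765, ZNF85, ZNF551, ZNF93, ZNF256, ZNF430 and ZNF460 were also called higher. ZNF222 and ZNF132 were the other members called lower. Of the 13, 4 lie in block 5: ZNF85, ZNF93, ZNF430 and ZNF714, all higher in CDKN1A knockdown. The count fell to 4 without CDKN1A guide 2 replicate 1, to 6 without CDKN1A guide 1 replicate 2 or CDKN1A guide 2 replicate 2, to 7 without SPP1 guide 2 replicate 2 and to 8 without CDKN1A guide 1 replicate 1 or SPP1 guide 3 replicate 2; with the libraries of a guide summed it was 1.

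In KDM1A knockdown against SPP1 knockdown 3 members were higher and 9 lower (5.63%), against 11.9% of all genes (6.90% of them higher), with a median of -0.086, where all genes had -0.013. ZNF229 was higher in KDM1A knockdown (0.59 ± 0.13, adjusted p = 0.00673), with 5.54, 5.61, 3.93 and 4.08 CPM in KDM1A knockdown and 2.83 to 3.68 CPM in SPP1 knockdown, and its level split by KDM1A guide. It kept this call in 33 of 36 alternatives, with log2 fold changes of 0.334 to 1.067. The highest adjusted p was 0.327 in edgeR with a guide left out and 0.705 over all alternatives, by edgeR or DESeq2. ZNF418 (1.11 ± 0.32, adjusted p = 0.0270) and ZNF274 (0.25 ± 0.08, adjusted p = 0.0455) were the other members higher. ZNF568 (-0.44 ± 0.11, adjusted p = 0.0112), ZNF440 (-0.42 ± 0.11, adjusted p = 0.0137) and ZNF566 (-0.47 ± 0.12, adjusted p = 0.0141) were lower, each without overlap between the groups, and so were ZNF419, ZNF559, ZNF583, ZNF526, ZNF260 and ZNF547. For ZNF260 the log2 fold change was -0.31 and turned to 0.065 with the effective length offset (adjusted p = 0.876). The count fell to 3 without KDM1A guide 2 replicate 2 and to 5 without KDM1A guide 2 replicate 1, and 0 were called with the libraries of a guide summed or without both libraries of KDM1A guide 2.

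Guides against 1 target could be read separately in a fit with 1 coefficient per guide, so that only libraries of the same guide measure the spread. The control guides differed from each other in 0 of 213 members, where 1.34% of all genes were called, and 21 members (9.9%, against 14.5% of all genes) had an unadjusted p under 0.05. ZNF85 was higher with both CDKN1A guides against control, by 1.00 ± 0.24 with guide 1 (adjusted p = 0.0262) and 1.16 ± 0.24 with guide 2 (adjusted p = 0.00965). It was the single member called for guide 1 (background 4.69%) and 1 of 4 for guide 2 (background 6.22%), with ZNF709, ZNF446 and ZNF677. ZNF473 fell with both KDM1A guides, with a log2 fold change of -0.40 ± 0.11 with guide 2 (adjusted p = 0.0233) and -0.50 ± 0.11 with guide 3 (adjusted p = 0.00716). ZNF260, ZNF229 and ZNF529 were also called for KDM1A guide 2 (4 members, background 14.1%), and ZNF426, ZNF446 and ZNF583 for guide 3 (4 members, background 11.5%). The KDM1A guides differed in 1 member, ZNF85, which had 1.45 and 1.51 CPM with guide 3 and 3.41 and 3.24 CPM with guide 2 (log2 fold change -1.16 ± 0.31, adjusted p = 0.0367; background 6.15%). Against control, SPP1 guide 1 called ZNF256 only (background 4.58%), guide 2 ZNF700 only (10.6%), and guide 3 ZNF100, ZNF507, ZNF331 and ZNF562 (10.5%). ZNF100, of block 5, had 6.23 and 5.09 CPM with SPP1 guide 1, against 0.136 and 0.583 CPM with SPP1 guide 3 (log2 fold change of guide 1 over guide 3 4.03 ± 0.72, adjusted p = 0.00846; background 2.80%). It had 1.70 and 4.55 CPM with SPP1 guide 2, and 3.39, 1.04, 6.08 and 6.99 CPM in control. Control guide 1 and control guide 2 libraries did not overlap for this gene, and the other 2 members that differed between SPP1 guides 1 and 3 were ZNF83 (0.36 ± 0.08) and ZNF358 (-0.36 ± 0.09). SPP1 guides 1 and 2 differed in ZNF709 alone (background 2.40%), SPP1 guides 2 and 3 in 0 members (0.214%), and the CDKN1A guides in 0 members (1.28%), with 13 (6.1%, against 15.6% of all genes) and 7 members (3.3%, against 9.4%) at an unadjusted p under 0.05 in edgeR's test.

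Blocks of neighbouring members were read next, by the median over their tested members. The following blocks were singled out after their values had been seen, and are given as a description. In CDKN1A knockdown against control, block 5 had a median log2 fold change of 0.195 with 21 of 26 members above 0, and block 12 (chr19:43525497-45076588) had -0.128 with 17 of 22 below 0. No other block of 5 or more members had a median further from 0 in that comparison than block 8, with 0.167. In block 5 only ZNF85 passed the test, and ZNF714 (0.37 ± 0.11, adjusted p = 0.0822), ZNF254 (0.42 ± 0.18, adjusted p = 0.241) and ZNF430 (0.26 ± 0.11, adjusted p = 0.253) had the next smallest p. By library, block 5 stood 0.122, 0.275, 0.149 and 0.177 above the control mean in CDKN1A knockdown, against -0.138, -0.056, 0.108 and 0.206 in control. The groups overlapped: both control guide 1 libraries lay below 0 and both control guide 2 libraries above it, and control guide 2 exceeded control guide 1 by a median of 0.231 over the block. Block 12 stood at -0.153, -0.184, -0.031 and -0.037 in CDKN1A knockdown, against 0.011, 0.009, -0.029 and 0.042 in control. Here the groups did not overlap, though the nearest libraries differed by less than the spread between the CDKN1A guides.

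Between CDKN1A and SPP1 knockdown block 5 had a median of 0.275 with 23 of 26 members above 0. The CDKN1A knockdown libraries are the same ones in which the block had been singled out. The library values did not overlap, but the lowest CDKN1A knockdown library (0.122) lay close to the highest SPP1 knockdown library (0.118). In SPP1 knockdown against control block 5 had a median of -0.112 with 20 of 26 members below 0, and its library values ran from -0.290 to 0.118, against -0.138 to 0.206 in control; both guide 1 libraries lay above 0 and the 4 libraries of guides 2 and 3 below it. Block 8, a group of 5 genes (ZNF302, ZNF181, ZNF599, ZNF30 and ZNF792), had a median of 0.314 with 5 of 5 above 0 in SPP1 knockdown and library values of -0.032 to 0.539, against -0.105 to 0.031 in control. In KDM1A knockdown block 1, also of 5 genes (ZNF554, ZNF555, ZNF556, ZNF57 and ZNF77), had a median of -0.412 with 5 of 5 below 0, library values of -0.347, -0.215, -0.283 and 0.093, against 0.086, 0.147, -0.231 and -0.079 in control. The control guides also differed over block 1, with a median of -0.402 for guide 2 against guide 1 and 4 of 5 below 0, and against control KDM1A guide 2 had -0.439 and guide 3 -0.147. No member of block 1 or block 8 was called in these comparisons. GC content moves with library here, with slopes of log2 CPM on transcript GC from -0.081 to 0.072 per 10 percentage points. The slopes ran from -0.0626 to -0.0125 in CDKN1A knockdown and from -0.0321 to 0.0724 in control. Members have a lower transcript GC (median 45.8%) than all genes tested (49.3%). With a GC offset, added after seeing the data, block 5 had a median of 0.157 in CDKN1A knockdown with 21 of 26 above 0, block 12 had -0.149 with 19 of 22 below 0, block 8 had 0.298 in SPP1 knockdown and block 1 had -0.407 in KDM1A knockdown. In CDKN1A knockdown the offset moved block 16 from -0.044 to 0.008, block 15 from 0.056 to 0.024 and block 9 from 0.035 to 0.008.

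Across the 18 libraries the log2 CPM of neighbouring members correlated weakly, with a median Pearson r of 0.153 over 199 pairs of neighbours within a block, 0.097 over 3245 pairs within a block and 0.063 over 19333 pairs of different blocks. After subtracting group means the medians were 0.118, 0.074 and 0.060. These are descriptions over pairs that share libraries and depth. Shared sequence was measured against all other genes and not between neighbours. Of the 214 members, 169 had at least 80% of their 31-base words in no transcript of another gene, and 10 had under 50%. A further measure was overlap, where 19 members had over 10% of their exons covered by exons on the opposite strand.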

How the data were processed

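The authors deposited kallisto output for each of 18 libraries, with an estimated count, a TPM and an effective length for 188753 Ensembl transcripts on GRCh38, per the submitters' processing notes and the file headers; the sources used here give neither kallisto's version nor its settings or transcriptome release. TPM as deposited by the authors are used for levels only. Per the labels' protocols, RNA was poly(A)-selected. Counts were summed per gene by GENCODE 29, which matched 169797 transcripts (90.0%) to 35579 genes (2.49 to 2.62% of counts unmatched and left out), and rounded. In edgeR 4.0.16 (R 4.3.3), 13527 genes passed filterByExpr (groups as design, minimum count 10); the 18 libraries were TMM-scaled and fitted jointly with a coefficient for each group, and adjusted p are from the quasi-likelihood F test with Benjamini-Hochberg over all genes (called under 0.05). A second fit had 1 coefficient per guide. The common biological coefficient of variation was 9.32%, or 6.92% by guide. The procedure was tested on simulated data. Named are members called against control (up to 8 per comparison), the 6 with the highest control TPM and the 3 nearest the count threshold on each side; other names were chosen after their values were seen. Members and lists were chosen with earlier results of these data known. Sensitivity was checked with DESeq2 1.42.0, other normalization, filters, offsets, library and guide exclusions.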

Additional observations from a re-analysis of the deposited data

Results flagged for a closer look

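In each of 52 groups of 4 to 6 libraries, the highest or lowest library was compared with the rest by Dixon's gap test. The groups covered the levels of the members called against control and of the 6 with the highest control TPM. They also covered the members' share of the counts and the median member's difference from the control mean. Other members named in the text were not screened. The test flags about 1 in 20 groups by chance. It flagged 5, all of them levels of the screened members. ZNF324 had 10.3 CPM in SPP1 guide 1 replicate 1, where the other SPP1 knockdown libraries had 7.76 to 7.99 CPM. ZNF260 had 11.6 CPM in KDM1A guide 2 replicate 1, where the other KDM1A knockdown libraries had 15.8 to 16.1 CPM; its call against control held without that library. ZNF428 had 63.3 TPM in CDKN1A guide 2 replicate 2, where the others had 50.4 to 50.9 TPM. ZNF787 had 40.1 TPM in CDKN1A guide 2 replicate 1, where the others had 37.3 to 37.7 TPM, and 31.2 TPM in SPP1 guide 2 replicate 1, where the others had 37.2 to 39.7 TPM.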

How the results depend on the processing

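Counts of members called are given in the order CDKN1A, KDM1A and SPP1 knockdown against control, CDKN1A against KDM1A, CDKN1A against SPP1 and KDM1A against SPP1 knockdown, and were 2, 2, 1, 11, 13 and 12 as reported. They were 1, 2, 0, 6, 5 and 5 without a low count filter; 0, 1, 1, 2, 5 and 5 with an effective length offset; 0, 3, 1, 4, 6 and 8 with protein-coding transcripts only; 0, 0, 0, 1, 1 and 0 with the libraries of a guide summed. They were 4, 3, 0, 15, 7 and 5 when only the 2 groups compared were fitted, 4, 2, 1, 7, 12 and 10 with DESeq2, and 0, 2, 2, 9, 15 and 14 with the transcript GC offset, which was chosen after seeing the data. With replicate number as a block they were 0, 2, 1, 10, 12 and 11. The replicate 1 minus replicate 2 difference of each guide was correlated across genes with that of every other guide. The correlation ran from -0.117 to 0.073 over 36 pairs of guides, so the numbers did not pair the libraries. Leaving out 1 library at a time gave 0 to 4, 2 to 4, 0 to 1, 3 to 15, 4 to 13 and 3 to 14, and member medians of 0.007 to 0.054, -0.089 to -0.059, -0.02 to 0.023, 0.092 to 0.124, -0.012 to 0.034 and -0.11 to -0.066. Leaving out both libraries of a guide gave, for CDKN1A knockdown against control, 0 without either control guide or either CDKN1A guide and 1 without KDM1A guide 2 or SPP1 guide 2. For KDM1A knockdown it gave 0 without control guide 1, 1 without KDM1A guide 2 and 4 without SPP1 guide 3, and for SPP1 knockdown 0 without either control guide, either CDKN1A guide, SPP1 guide 2 or SPP1 guide 3, and 2 without SPP1 guide 1. CDKN1A against KDM1A gave 7 when control guide 1 was left out, 6 or 1 when CDKN1A guide 1 or 2 was, and 3 when KDM1A guide 2 was; CDKN1A against SPP1 gave 5 without CDKN1A guide 1, 1 without CDKN1A guide 2 and 5 without SPP1 guide 3; KDM1A against SPP1 gave 0 without KDM1A guide 2 and 7 without SPP1 guide 2. Without CDKN1A guide 2 the member median was -0.013 in CDKN1A knockdown against control and 0.064 against KDM1A knockdown. ZNF229 reversed to 0.406 in CDKN1A against KDM1A knockdown with protein-coding transcripts only (adjusted p = 0.736, edgeR), and ZNF260 to 0.065 in KDM1A against SPP1 knockdown with the length offset (adjusted p = 0.876). ZNF473 and ZNF260 in KDM1A knockdown kept their call in 32 of 36 alternatives each, ZNF85 in 17, ZNF331 in 15 and ZNF324 in 8. The cause of these changes was not tested. The median SE of the tested members against control was 0.156, 0.157 and 0.143 on the log2 scale in CDKN1A, KDM1A and SPP1 knockdown.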
